A study of Mus musculus with 2 samples.

Results

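The transcripts of the MYC family and its partners were followed in single cells of mouse pancreatic tumours. The 8 members were chosen by gene symbol, namely Myc, Mycn, Mycl, Max, Mxd4, Mxi1, Mlx and Mlxipl, and all 8 of them were found among the 32285 genes listed for each library. Each group was 1 library, from tumours of mice at 6 weeks of age. EL1 mice carried the SV40 large T antigen and firefly luciferase, each under the pancreatic elastase I promoter, on the FVB/N background. WTg mice had the same transgenes plus the coding sequence of Mettl3 driven by CAG, a promoter active in most cell types. The Mettl3 transgene was made in BL/6 eggs, so strain background and transgene cannot be told apart, and the number of animals behind each library is not given in the sources used here. With 1 library per group no difference was tested, and each interval below is a 95% interval of counting error only. The T antigen and luciferase were not analysed here. Mettl3 itself, which checks the labels, stood at 15.1 CPM (UMIs of a gene scaled to the total UMIs of the same cells) in EL1 and 66.7 CPM in WTg.

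A barcode counted as a cell when it had 500 genes or more, 1000 UMIs (unique molecular identifiers, 1 per captured transcript) or more and no more than 20% mitochondrial UMIs. This left 1113 cells of 1621 barcodes in EL1, with 37961287 UMIs, and 905 cells of 1488 barcodes in WTg, with 33007683 UMIs. No kept cell had a barcode kept in both libraries, although 15 barcodes stood in both deposited lists. Since a 3′ library gives 1 count per captured molecule whatever its length, levels of different genes were set side by side. Differences between genes in how well their transcripts are captured were not tested.

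Cells were classed by marker genes that are not members, in UMIs per 10000. Cells with under 50 UMIs of 14 measured acinar enzyme genes were set aside as non-epithelial (54 in EL1 and 73 in WTg). Of the others, cells with at least 0.5 of Atp4b, a subunit of the gastric proton pump, were Atp4b-positive (70 in EL1 and 0 in WTg). Cells with under 2 of Chga, the secretory granule protein chromogranin A of endocrine cells, were acinar-type (293 and 276), those with at least 50 were Chga-high (332 and 115), and the rest were Chga-intermediate (364 and 441). The classes are ranges and not cell types: the upper Chga limit has no gap in the distribution, and 207 EL1 and 117 WTg cells lay within 1.5-fold of it. The acinar list stood at a median of 1844 and 2074 per 10000 in acinar-type cells of EL1 and WTg, at 725 and 698 in Chga-high cells, at 708 in Atp4b-positive cells and at 17.4 and 15.3 in non-epithelial cells. The neuroendocrine list ran at a median of 108 and 103 per 10000 in Chga-high cells, of which Chga itself, used to choose them, made up most (a median of 83.2 in WTg). The 11 other neuroendocrine genes stood at 2.46 and 2.64 in acinar-type, 4.84 and 8.42 in Chga-intermediate and 11.8 and 17.2 in Chga-high cells. The defining markers of macrophages, neutrophils, lymphocytes, endothelial cells and fibroblasts had class medians of at most 0.861 per 10000 in the epithelial classes.

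MYC proteins are transcription factors that bind DNA as pairs with MAX, at the E-box motif CACGTG, and drive ribosome production, metabolism and growth. MYC, MYCN and MYCL differ mainly in where they are made: MYC in many dividing cells, MYCN in the developing nervous system and in neuroendocrine tumours, and MYCL in lung neuroendocrine tumours, among others. The MXD proteins, here MXD4 and MXI1, also pair with MAX at the same motif but recruit SIN3 corepressors, and oppose MYC. MLX is the partner of a parallel branch, in which MLXIPL (also called ChREBP) and its relative MondoA, encoded by Mlxip, respond to sugar. In the pancreas, MYC is known for its part in acinar cell tumours and in the balance between acinar and endocrine programmes.

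The E-box is also the sequence the network's own genes can carry, and 300-base windows around transcript starts (250 bases before to 50 after, RefSeq, GRCm38.p6) were searched for CACGTG, which reads the same on both strands. Of the members, 7 had such a window and 4 held the motif, while it was found in 8.09% of 27025 genes. Myc had no entry in the reference used, so its own promoter was not searched. The stretches of Mxd4, Mlx and Mlxipl are shown as the members of the MXD and MLX branches that held it, with the motif in capitals.
Mxd4, chr5:34187912-34187941, minus strand: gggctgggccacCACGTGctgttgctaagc
Mlx, chr11:101087238-101087267, plus strand: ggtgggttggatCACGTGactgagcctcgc
Mlxipl, chr5:135089780-135089809, plus strand: gcggctgccatcCACGTGctaaggagagaa
Counted from the transcript start, the motif began at -219 in Mxd4, at -40 in Mlx and at -98 from 1 of the starts of Mlxipl. In Max it began at -3 and ran across the start (chr12:76962246-76962251, minus strand). The windows of Mycn, Mycl and Mxi1 held no match. These are matches of letters and were not read as binding.

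Myc was the family member used by every epithelial class. Over all kept cells, Myc (chr15:61985391-61990374 in GRCm38) had 1813 UMIs in EL1 and 1735 in WTg, Mycn (chr12:12936093-12941914) had 60 and 36, and Mycl (chr4:122995652-123002485) had 9 and 20. Myc thus held 96.3% of the family's UMIs in EL1 (95.4 to 97.1) and 96.9% in WTg (96.0 to 97.6, exact Clopper-Pearson). In acinar-type cells its share was 97.5% of 947 UMIs in EL1 and 98.1% of 723 in WTg. In Chga-high cells it was 87.3% of 252 UMIs in EL1 (82.5 to 91.1) and 88.4% of 86 in WTg (79.7 to 94.3), below the acinar-type share and outside its interval in both libraries. In Atp4b-positive cells all 120 UMIs were Myc, which allows a share of Mycn or Mycl of up to 3.03% each.

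**Figure D1:**
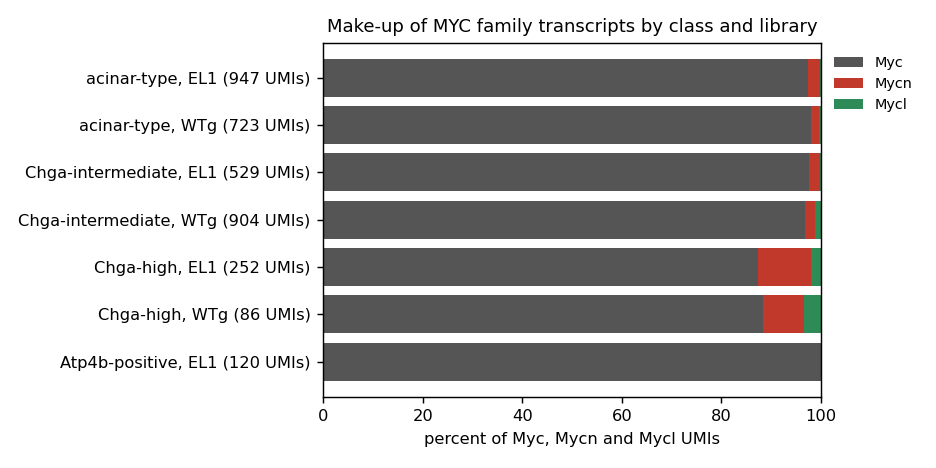
Percent of the summed Myc, Mycn and Mycl UMIs that belong to each gene, by cell class and library, with the number of UMIs in brackets. Myc fills nearly the whole bar in acinar-type and Chga-intermediate cells, and Mycn takes 10.7% (EL1) and 8.14% (WTg) in Chga-high cells.

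The larger Mycn share of Chga-high cells came with a lower Myc level and not with a clear difference in Mycn. Mycn stood at 2.01 CPM in EL1 acinar-type cells (1.26 to 3.04, 22 UMIs) and at 2.74 in EL1 Chga-high cells (1.81 to 3.99, 27 UMIs). In WTg it stood at 1.23 (0.616 to 2.21, 11 UMIs) and 1.90 CPM (0.764 to 3.91, 7 UMIs). These intervals overlap within each library, and a difference in Mycn between acinar-type and Chga-high cells was not detectable at this depth. Chga-intermediate cells stood lower in EL1, at 0.816 CPM (0.407 to 1.46), apart from the Chga-high interval, and at 0.952 in WTg (0.564 to 1.51), which overlaps it. Mycn UMIs were found in 43 EL1 and 28 WTg cells with up to 6 UMIs in a cell, and 69.8% and 71.4% of those cells also held Myc, beside 46.1% and 54.3% of all cells. The Mycn-holding cells were deep, with a median of 45072 and 48970 UMIs, against 26543 and 34836 over all cells. Mycl was near the counting limit in each class, with at most 10 UMIs in any of them.

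Myc was lower in Chga-high than in acinar-type cells, to a like degree in both libraries under these class limits. Its level was 84.2 CPM in EL1 acinar-type cells (78.8 to 89.8), 38.3 in Chga-intermediate cells (35.1 to 41.8) and 22.3 in Chga-high cells (19.5 to 25.5). In WTg the levels were 79.6 (73.8 to 85.7), 46.3 (43.3 to 49.5) and 20.6 CPM (16.2 to 25.8). No 2 of these intervals overlap within a library. The log2 ratio of Chga-high over acinar-type cells was -1.91 in EL1 (-2.13 to -1.70) and -1.95 in WTg (-2.31 to -1.61), so Myc was 3.77-fold and 3.86-fold lower. Over all genes the median log2 ratio of the same contrast was 0.39 and 0.51, and the acinar enzymes, mitochondrial and haemoglobin genes took 24.2% of the UMIs of acinar-type cells and 13.3% of those of Chga-high cells in EL1. A ratio of at least 2-fold in the lower direction was met by 3.87% of 13438 genes in EL1 and 5.34% of 12753 in WTg, and Myc was the single member among the 7 measured that met it in either library.

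The WTg ratio depended on how cells were grouped and weighted. It was -1.22 with classes taken from clusters and -1.24 as a mean over cells of equal weight. The EL1 ratio with cells of equal weight was -1.70. Among the clusters, Myc stood at 74.5 CPM in the acinar-type cluster 1 of EL1 (248 cells) and at 64.2 in the acinar-type cluster 3 of WTg (182 cells). The smaller acinar-type cluster 13 (44 WTg cells, median 3744 UMIs) stood at 6.67 CPM (0.808 to 24.1, 2 UMIs). The highest Myc of the clusters with at least 20 cells in a library was in cluster 12, Chga-intermediate by its median. Its Myc stood at 102 CPM in EL1 (84.8 to 122, 42 cells) and 95.5 in WTg (74.3 to 121, 22 cells). Mycn was highest there too, at 7.74 CPM in EL1 (3.54 to 14.7, 9 UMIs). In WTg the Mycn level of cluster 12 was 5.54 CPM, on 4 UMIs of 1 cell. Myc stood at 16.7 CPM in the Chga-high cluster 4 of EL1 (179 cells) and 25.5 in the Chga-high cluster 6 of WTg (88 cells). Different clusters thus hold most of each class in the 2 libraries.

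**Figure D2:**
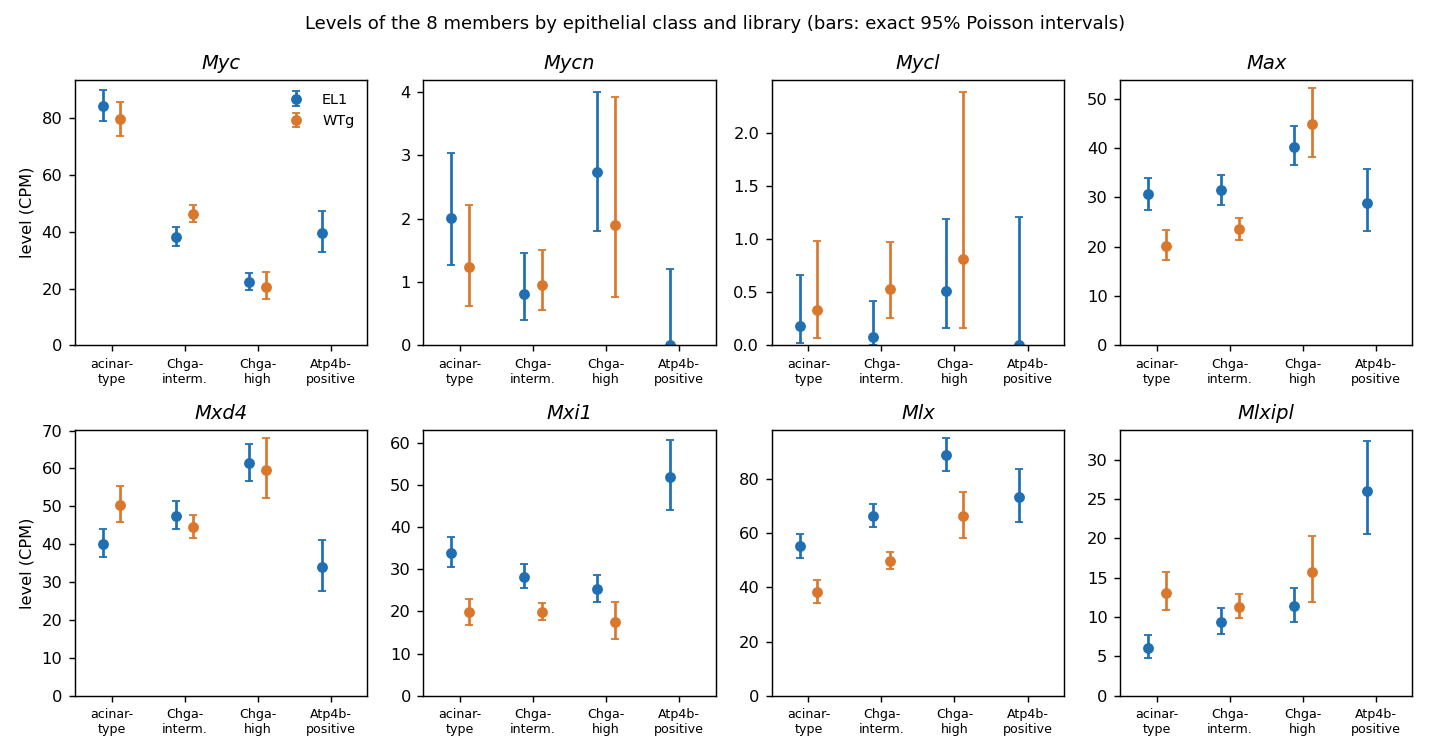
Level of each of the 8 members in CPM (vertical axes, each from 0) by epithelial cell class, with EL1 in blue and WTg in orange, points for the summed level and bars for exact 95% Poisson intervals. Myc drops stepwise from acinar-type to Chga-high cells in both libraries, while Max and Mlx are highest in Chga-high cells and Mxi1 and Mlxipl in the Atp4b-positive cells of EL1.

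Across 7 finer bins of Chga the Myc level was lower in the upper bins in both libraries, though not at each step. In EL1, Myc stood at 84.2 CPM below 2 Chga UMIs per 10000, at 47.6 between 2 and 5, at 56.8, 33.2, 25.2 and 27.2 in the following bins, and at 16.2 CPM from 100 upward. In WTg it was 79.6 CPM below 2 and 94.5 between 2 and 5 (80.5 to 110), then 60.6, 36.2, 28.6 and 20.5 CPM in the following bins and 20.9 from 100 upward. Between 2 and 5 Chga UMIs the intervals of the libraries do not overlap (38.3 to 58.5 in EL1). The acinar list declined over the same bins, from a median of 1844 to 643 per 10000 in EL1 and from 2074 to 615 in WTg, and its part in the Myc levels was not tested. Max moved the other way in WTg, from 20.1 CPM in the lowest bin (17.3 to 23.3) to 51.4 in the highest (39.2 to 66.3). In EL1 these bins stood at 30.6 (27.4 to 34.0) and 36.6 CPM (31.1 to 42.7), which overlap, with 43.3 CPM between 50 and 100 Chga UMIs.

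**Figure D3:**
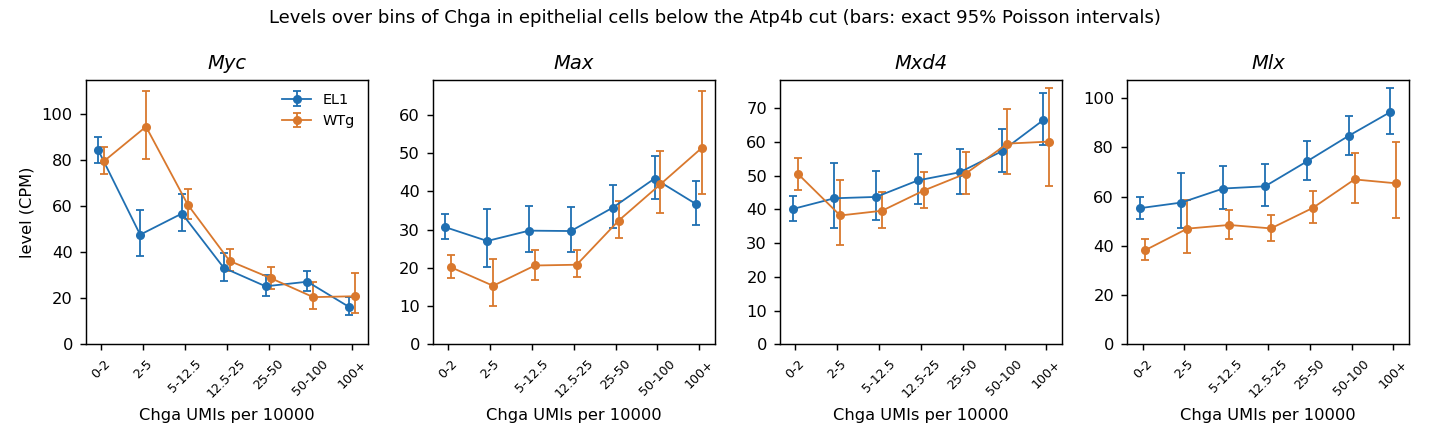
Levels in CPM (vertical axes) of Myc, Max, Mxd4 and Mlx in 7 bins of Chga UMIs per 10000 (horizontal axes) in epithelial cells below the Atp4b limit, with exact 95% Poisson intervals. Myc is higher below 25 Chga UMIs than above in both libraries, while Mlx is highest in the upper bins and lower in WTg than in EL1 in each bin.

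Within a class Myc was unevenly spread over cells. A Myc UMI was found in 64.2% of acinar-type cells of EL1 and 63.8% in WTg, in 32.5% and 32.2% of Chga-high cells, and in 60.0% of Atp4b-positive cells, with up to 31 UMIs in 1 EL1 and 42 in 1 WTg acinar-type cell. The tenth of acinar-type cells richest in Myc held 44.2% of its UMIs in EL1 and 45.7% in WTg. With each cell thinned to 2000 UMIs, which left out 15 and 33 shallower acinar-type and 15 and 11 Chga-high cells, the shares were 12.6% and 12.3% in acinar-type cells and 3.47% and 5.77% in Chga-high cells. The thinned shares kept their order in EL1 without overlap of the exact intervals (8.93 to 17.1 and 1.74 to 6.12), and in WTg the intervals overlap (8.49 to 17.2 and 2.15 to 12.1).

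Myc is also an immediate early gene, which cell dissociation can induce. The 8 other immediate early genes listed, Fos and Jun among them, had a summed median of 23.4 and 17.4 per 10000 in acinar-type cells. In Chga-high cells it was 30.7 and 20.5. Where these genes exceeded 100 per 10000, Myc was higher than in the rest of the class. It stood at 131 against 41.4 CPM in Chga-intermediate cells of WTg (27 cells past 100). In Chga-high cells of EL1 it stood at 50.7 against 21.0 CPM (21 cells past 100). The part of dissociation in the Myc levels was not tested. Without such cells the Myc ratio of Chga-high over acinar-type cells was -1.97 in EL1 and -1.88 in WTg.

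Max, the shared partner of MYC and the MXD proteins, did not follow Myc. Its level was 30.6 CPM in acinar-type cells of EL1 and 40.3 in Chga-high cells (log2 ratio 0.40, 0.19 to 0.61), near the median of all genes. In WTg it was 20.1 and 44.8 CPM (log2 ratio 1.16, 0.84 to 1.47), and Max was the single member at least 2-fold higher, as were 21.9% of all genes there. In EL1 no member was, beside 17.4% of all genes. With each cell weighted equally the Max ratios were 0.00 and 0.49.

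Mxd4, a MAX partner that opposes MYC, stood at 40.1 CPM in acinar-type and 61.4 in Chga-high cells of EL1, with a log2 ratio of 0.61 (0.43 to 0.79). In WTg the levels were 50.4 and 59.7 CPM, with a log2 ratio of 0.24 (0.00 to 0.48). The WTg difference had the opposite sign with classes from clusters (-0.27), with the acinar, mitochondrial and haemoglobin UMIs left out of the total (-0.04) and in cells low in mitotic genes (-0.02), so no direction is given for it. Mxi1, the second such partner among the members, went the other way. It stood at 33.9 CPM in acinar-type and 25.3 in Chga-high cells of EL1 (log2 ratio -0.42, -0.66 to -0.19) and at 19.8 and 17.4 in WTg (-0.19, -0.62 to 0.23).

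Of the 5 other proteins of the network, Mxd1, another MXD gene, differed most between the classes. Its level was 10.7 and 29.9 CPM in acinar-type and Chga-high cells of EL1 (log2 ratio 1.48, 1.17 to 1.81), and 9.20 and 30.4 CPM in WTg (1.72, 1.30 to 2.15). Mxd1 was thus 2.80- and 3.30-fold higher where Myc was lowest, and reached 152 and 78.1 CPM in non-epithelial cells. Mnt, another MAX partner and MYC antagonist, stood at 7.39 and 13.4 CPM in EL1 (0.86, 0.45 to 1.28) and 8.87 and 10.9 in WTg (0.29, -0.30 to 0.86). Mga, a large MAX partner, stood at 90.9 and 130 CPM in EL1 and at 59.9 and 104 in WTg, above Myc in each of these sets but WTg acinar-type cells.

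**Figure D4:**
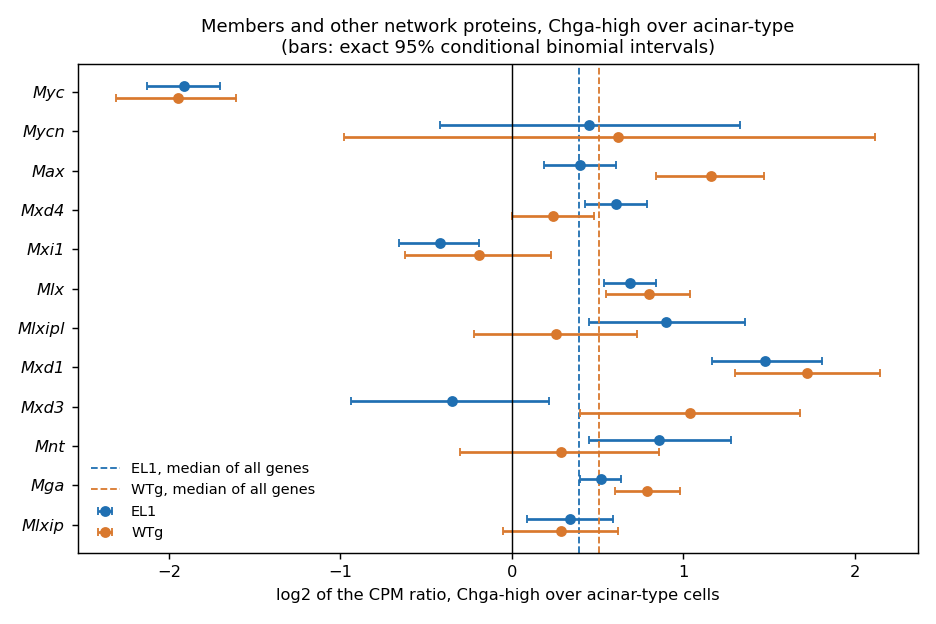
Log2 ratio of the CPM in Chga-high over acinar-type cells (horizontal axis) for 7 members and the 5 other network proteins, with exact 95% conditional binomial intervals, and dashed lines at the median of all genes in each library. Myc lies far to the left at -1.91 and -1.95, Mxd1 to the right at 1.48 and 1.72, and the other members lie between -0.42 and 1.16.

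Mlx, the partner of the sugar-responsive branch, had the highest level of the members in Chga-high cells, at 89.0 CPM in EL1 and 66.5 in WTg, where its interval overlaps that of Mxd4. In acinar-type cells it stood at 55.3 and 38.3 CPM. The log2 ratios of 0.69 (0.54 to 0.84) and 0.80 (0.55 to 1.04) lie 0.29 above the median of all genes in both libraries. Psmc3ip, at 21.4 and 18.1 CPM over all cells, lies on the opposite strand to Mlx and overlaps it by 385 bases. Max overlaps Gm47218, on its own strand. The part of these overlaps in the counts was not tested. Mlxip, the other MLX partner, stood at 23.2 and 29.4 CPM in EL1 and 24.9 and 30.4 in WTg.

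Mlxipl, the ChREBP gene and a regulator of glycolytic and lipogenic enzymes, was low, and its level differed by class. In EL1 it stood at 6.11 CPM in acinar-type (4.74 to 7.76), 11.4 in Chga-high (9.37 to 13.7) and 26.0 in Atp4b-positive cells (20.6 to 32.4). In WTg it stood at 13.1 CPM in acinar-type (10.9 to 15.7) and 15.7 in Chga-high cells (11.9 to 20.3). A Mlxipl UMI was found in 1 of 54 EL1 and 1 of 73 WTg non-epithelial cells, at median depths of 6881 and 12391 UMIs. The EL1 ratio of Chga-high over acinar-type cells was 0.90 (0.45 to 1.36) and 1.79 with classes from clusters. The WTg ratio was 0.26 (-0.22 to 0.73), and ran from -1.29 with cells weighted equally to 1.12 with the class limits doubled.

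A cluster of shallow cells had the highest Mlxipl level of the clusters with at least 20 cells in a library. Cluster 5 (61 EL1 and 77 WTg cells, median 1786 UMIs) stood at 110 CPM of Mlxipl in EL1 (60.2 to 185, 14 UMIs) and 172 in WTg (118 to 243, 32 UMIs). Myc had 0 UMIs there in EL1, which allows up to 29.0 CPM, and 11 UMIs in WTg (59.3 CPM, 29.6 to 106). The 508 EL1 and 583 WTg barcodes removed by the filter held 33 and 56 UMIs of Mlxipl beside 29 and 56 of Myc, while the kept cells held 386 and 390 of Mlxipl beside 1813 and 1735 of Myc. Whether intron reads were counted is not given in the sources used here, and the part of depth and RNA quality in this level was not tested.

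Atp4b-positive cells, found in EL1 alone, differed from acinar-type cells in several members. Myc stood at 39.5 CPM (32.7 to 47.2), below acinar-type cells (log2 ratio -1.09, -1.38 to -0.82). Mlxipl was 4.25-fold higher (log2 ratio 2.09, 1.60 to 2.58) and Mxi1, at 52.0 CPM, 1.53-fold higher (0.62, 0.34 to 0.89). Max (28.9 CPM, -0.08) and Mxd4 (33.9 CPM, -0.24) had intervals that include 0. Mycn had 0 UMIs there, which allows up to 1.21 CPM, against 2.01 CPM in acinar-type cells (1.26 to 3.04, 22 UMIs). Among 12513 genes, 17.0% were at least 2-fold higher and 12.1% at least 2-fold lower. Of 7 members 1 was higher (Mlxipl) and 2 were lower (Myc and Mycn). The Mycn call rests on 3 counts put in place of 0. The Mlxipl ratio was 2.86 with classes from clusters and 1.16 with cells weighted equally. The cells were rich in mitotic genes: 45 of the 70 had at least 5 UMIs of 10 mitotic genes per 10000, beside 46 of 293 acinar-type cells. Restricted to cells below that limit, the Mlxipl ratio was 0.77 and the Mxi1 ratio 0.65. The Mlxipl levels there were 8.37 CPM (3.07 to 18.2, 6 UMIs in 25 cells) and 4.91 in acinar-type cells (3.55 to 6.62), which overlap. In cells at or above the limit they were 31.4 CPM (24.6 to 39.5) and 10.9 in acinar-type cells (6.96 to 16.2). Chga-high cells of EL1 at or above it stood at 21.6 CPM (15.7 to 29.1), which overlaps the Atp4b-positive interval.

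Mlxipl was higher in mitotic cells of each epithelial class. Cells with at least 5 mitotic UMIs per 10000 were set beside the rest of their class and library in 7 sets, and the Mlxipl ratio was above 0 in 7 of 7, with an interval above 0 in 6. In acinar-type cells of EL1 the levels were 10.9 and 4.91 CPM, and in those of WTg 16.5 and 11.7. In Chga-high cells they were 21.6 and 8.78 CPM in EL1 and 25.5 and 12.7 in WTg, and in Atp4b-positive cells 31.4 and 8.37. The log2 ratios ran from 0.49 to 1.91, while the median of all genes in these sets ran from 0.03 to 0.26. In cells with at least 5000 UMIs the ratio was above 0 in 7 of 7 sets too, from 0.56 to 1.90, with an interval above 0 in 5.

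Myc was not higher in mitotic cells: its ratio was below 0 in 7 of 7 sets, from -1.01 to -0.11, with an interval below 0 in 4. Its levels in mitotic-high and other acinar-type cells were 62.5 and 89.7 CPM in EL1 and 69.3 and 83.8 in WTg. Mxd3, a MXD gene known to be made in S phase, was nearly confined to mitotic-high cells, with 63 of its 64 UMIs in acinar-type cells of EL1 and 44 of 47 in WTg. Its log2 ratio ran from 4.19 to 7.96 over 6 sets. Mxd4 varied with the class, from -0.55 in Atp4b-positive cells to 1.05 in Chga-high cells of WTg (98.7 and 47.8 CPM). Mxi1 was above 0 in 7 of 7 sets, from 0.01 to 0.66, with an interval above 0 in 2. It lay below the median of all genes in acinar-type cells of WTg (0.09 against 0.23) and in Atp4b-positive cells (0.01 against 0.03). Mxd1 was above 0 in 7 of 7 sets too, from 0.33 to 1.37, with an interval above 0 in 2.

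**Figure D5:**
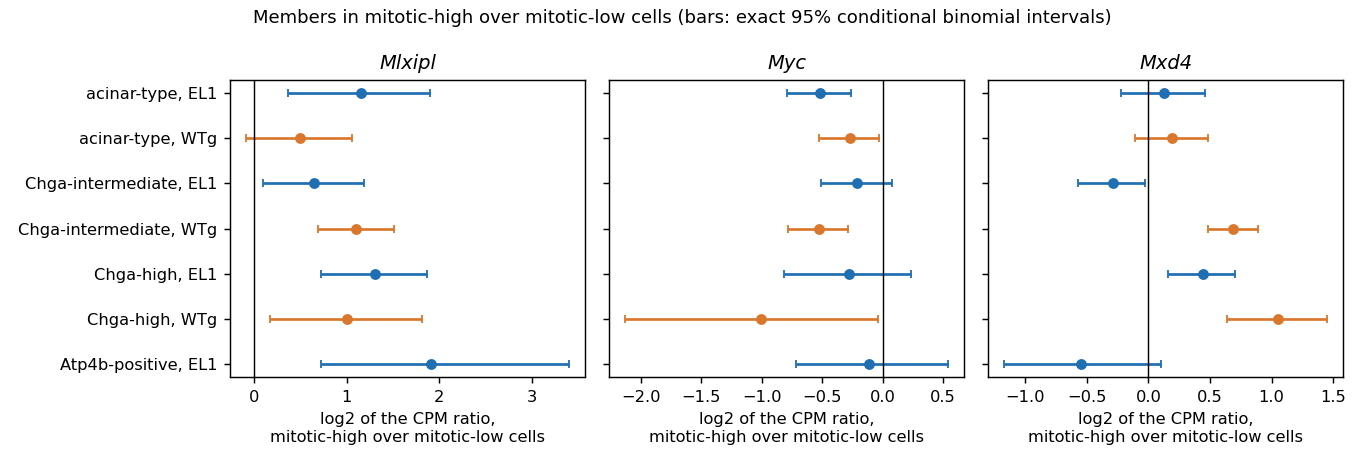
Log2 ratio of the CPM in mitotic-high over mitotic-low cells (horizontal axes) for Mlxipl, Myc and Mxd4, by class and library, with exact 95% conditional binomial intervals. Mlxipl lies above 0 in 7 of 7 sets and Myc below 0 in 7 of 7, while Mxd4 lies on both sides.

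Between the libraries, Myc levels were close within acinar-type and Chga-high cells but not within Chga-intermediate cells. In Chga-intermediate cells Myc stood at 38.3 CPM in EL1 (35.1 to 41.8) and 46.3 in WTg (43.3 to 49.5), without overlap. Over all cells Myc stood at 47.8 CPM in EL1 and 52.6 in WTg, a log2 ratio of WTg over EL1 of 0.14 (0.04 to 0.23), where the median of all genes was -0.14. Within acinar-type cells the ratio was -0.08 (-0.22 to 0.06) and within Chga-high cells -0.12 (-0.51 to 0.27). The Chga-high ratio was 0.72 with classes from clusters and 0.47 with cells weighted equally, so no direction is given for it. The WTg library held more acinar-type and Chga-intermediate cells (30.5% and 48.7%) and fewer Chga-high cells (12.7%) than EL1 (26.3%, 32.7% and 29.8%).

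Mlx, Mxi1 and Max were lower in WTg over all cells, at 47.5, 21.4 and 26.5 CPM against 69.1, 31.8 and 34.0 in EL1. Mlx had log2 ratios of -0.53 (-0.73 to -0.34) in acinar-type and -0.42 (-0.63 to -0.22) in Chga-high cells. Mxi1 had ratios of -0.78 (-1.05 to -0.52) and -0.54 (-0.96 to -0.14). Both kept their sign under each alternative tried. Max was lower in acinar-type cells (-0.60, -0.87 to -0.34) and had an interval that includes 0 in Chga-high cells (0.15, -0.12 to 0.42).

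Mlxipl was the member that differed most between the libraries in acinar-type cells, at 13.1 CPM in WTg and 6.11 in EL1, a log2 ratio of 1.10 (0.66 to 1.56). It was the single member of 7 at least 2-fold higher, as were 7.41% of 13039 genes, and none was 2-fold lower, as were 7.62%. The ratio was 1.04 in cells with at least 5000 UMIs, 1.26 in cells low in mitotic genes and 1.80 with cells weighted equally. In Chga-high cells it was 0.47 (-0.02 to 0.94), and no member passed 2-fold there, beside 6.68% of genes higher and 6.77% lower. Over all cells Mycl was the single member past 2-fold, on 20 and 9 UMIs (log2 ratio 1.35, 0.15 to 2.67), beside 10.1% of 16167 genes higher and 6.90% lower.

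Known MYC targets had ratios near or below those of other genes between Chga-high and acinar-type cells. The list of 32 genes held nucleolar proteins and metabolic enzymes. In EL1, 15 of the 32 had a ratio above 0 in Chga-high over acinar-type cells and 17 below, none past 2-fold, with a median of -0.03 against 0.39 over all genes, and 1 of the 32 lay above that median of all genes. The lowest were Ldha, lactate dehydrogenase (569 and 362 CPM, -0.65), and Hk2, a hexokinase (-0.54). In WTg, 28 of the 32 were above 0, with a median of 0.40 against 0.51, and 8 lay above the median of all genes. Ldha was again lowest there (373 and 263 CPM, -0.50), and Cdk4, a cell cycle kinase, was highest (87.2 and 180 CPM, 1.05).

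Targets of ChREBP and MondoA were read for the MLX branch. Of 13 genes listed, 4 were at least 2-fold higher and none 2-fold lower in Chga-high over acinar-type cells of EL1, beside 17.4% and 3.87% of all genes, with a median of 0.67 against 0.39 over all genes, and Khk, ketohexokinase, was the lowest of them (39.2 and 27.9 CPM, -0.49). In WTg, 5 of 12 measured were higher and 1 was lower, beside 21.9% and 5.34% of all genes, with a median of 0.65 against 0.51. Acly, ATP citrate lyase, stood there at 58.6 and 215 CPM (1.88), and Txnip, a repressor of glucose uptake, at 118 and 58.3 (-1.01). In Atp4b-positive over acinar-type cells, where Mlxipl was highest, 5 of 11 were above 0 with a median of -0.07 against 0.15. Txnip was the highest of them (107 and 508 CPM, 2.25) and Scd1, a fatty acid desaturase, the lowest (58.6 and 16.8 CPM, -1.81).

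Of the MYC cofactors, MYC turnover genes and MXD corepressors, none was past 2-fold in EL1 between Chga-high and acinar-type cells, where 17.4% of all genes were higher, and 1 of each list was higher in WTg, namely Ruvbl2, Usp28 and Hdac2, where 21.9% of all genes were. The median of the 7 MYC cofactors was 0.30 against 0.39 over all genes in EL1, with 2 of 7 above the latter, and 0.59 against 0.51 in WTg, with 6 of 7 above. The highest was Zbtb17, which encodes the MYC partner MIZ1, in EL1 (0.81) and Ruvbl2, a chromatin ATPase, in WTg (13.4 and 30.7 CPM, 1.20). The 5 MYC turnover genes had medians of 0.54 and 0.52 against the same 0.39 and 0.51. Fbxw7, whose ubiquitin ligase marks MYC for degradation, stood at 28.5 and 48.8 CPM in EL1 (0.78) and 23.1 and 44.2 in WTg (0.94). The 4 MXD corepressor genes had medians of 0.50 and 0.52, also near those of all genes, with Hdac2 at 53.4 and 79.2 CPM in EL1 and 46.9 and 108 in WTg. In Atp4b-positive cells Aurka, a mitotic kinase that stabilises MYCN, stood at 33.2 CPM against 6.29 in acinar-type cells (2.40). Mycn had 0 UMIs in that class, and 45 of its 70 cells were mitotic-high, beside 46 of 293 acinar-type cells. The part of this mix in the Aurka level was not tested. Pim1 stood in Atp4b-positive cells at 44.1 against 21.9 (1.01) and Sin3b at 133 against 75.2 (0.82).

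Between the libraries over all cells, Trrap, a scaffold of MYC's histone acetyltransferase complexes, was the highest of the cofactors (36.5 CPM in EL1 and 72.2 in WTg, 0.98) and Ruvbl2 the lowest (28.2 and 19.5, -0.53). Of the known MYC targets, 5 of 32 lay above 0 and 27 below, with a median of -0.20 against -0.14 over all genes and none past 2-fold. Within acinar-type cells their median was -0.35 against -0.17, with 8 of 32 above the latter. There 1 was at least 2-fold lower, beside 7.62% of all genes. Within Chga-high cells their median was 0.04 against -0.03, with 20 of 32 above the latter and none past 2-fold. Of the turnover genes Pim1, a kinase that stabilises MYC, was the highest (34.6 and 54.4 CPM, 0.65). Trrap and Pim1 were higher in WTg within acinar-type cells (0.68 and 1.04) and Chga-high cells (0.95 and 0.81) too.

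The genes most like each member in level were sought over 18 cluster-by-library units of at least 20 cells, by Pearson's r of log2(CPM + 1) among 11052 genes. The units share 2 libraries and differ in depth, so the values are a description. Myc was most like Sergef (r = 0.91), then Fance, a Fanconi anaemia gene, Mansc1 and Mob3a (each 0.87). Mlxipl was most like Ppfibp1 (0.96), then Cux2, Ilf2 and Cdk2 (each 0.95), with the shallow cluster 5 as its highest unit in each library. Mycn was most like 2310074N15Rik (0.84), Trp53inp1, 1810044K17Rik and Sox4, with a UMI in 11 of the 18 units. Mycl, with a UMI in 8 units, was most like Ifitm1 (0.90), Timp1, Cdh5 and Fn1, and its highest unit, the non-epithelial cluster 11 of WTg at 4.13 CPM, rests on 4 UMIs of 1 cell.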

How the data were processed

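UMI counts per gene and barcode were deposited by the authors as a sparse matrix for each library, made with Cell Ranger 6.0.2 per the file headers from 10x 3′ v3.1 libraries, on GRCm38 per the labels. The deposited dense count tables served as an alternative. Scrublet (scanpy 1.11.5) called 4 doublets in each library, which were kept. Summed counts were given as CPM with exact 95% Poisson intervals, ratios with conditional binomial intervals and shares with Clopper-Pearson intervals (scipy 1.17.1), which cover counting error only. Bounds replaced a count of 0 with 3 counts, which over all kept cells is 0.0790 CPM for EL1 and 0.0909 CPM for WTg. Fold counts used genes with at least 10 UMIs. Leiden clusters (resolution 1) were classed by the median over their cells, a rule set after the clusters were seen. TMM scaling came from edgeR 4.0.16. The code for ratios and intervals was checked on simulated counts. The members and gene lists were chosen with earlier results of these data known. Named genes are the members, the highest and lowest 2 genes of each list with at least 30 UMIs and the 4 genes most like Myc, Mycn, Mycl and Mlxipl, of which some are printed. 1 named gene is not reported here.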

Additional observations from a re-analysis of the deposited data

How the results depend on the processing

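Among 410 values computed under other settings, 357 lay inside the reported value's counting interval or within 1.5 times a reported count, 50 lay outside, and 3 turned the sign of a ratio whose counting interval excluded 0, all 3 for Mxd4 in Chga-high over acinar-type cells of WTg (-0.27 with classes from clusters, -0.04 with acinar, mitochondrial and haemoglobin UMIs left out of the total, and -0.02 in cells low in mitotic genes). Ratios whose interval included 0 changed sign as well, as their values below show. The cause was not tested. Alternatives on depth, immediate early genes, mitotic genes and the reduced total were chosen after seeing the data. No paired analysis was possible because either genotype was represented by 1 library, and no replicate could be left out.

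Over all cells, TMM scaling shifted each log2 ratio of WTg over EL1 by 0.13, to 0.27 for Myc, -0.22 for Max, 0.19 for Mxd4 and -0.41 for Mlx, and put 1 MYC cofactor past 2-fold. Cells weighted equally gave 0.31 for Myc, -0.67 for Mlx and 0.90 for Mlxipl. For Chga-high over acinar-type cells, Myc was -2.34 with limits doubled and -1.70 with cells weighted equally in EL1, and -1.22 with clusters and -1.24 with cells weighted equally in WTg. Max was 0.63 with clusters and 0.00 with cells weighted equally in EL1, and 0.83 and 0.49 in WTg. Mxd4 was 0.87 with clusters and 0.42 under the reduced total in EL1, and Mlx under that total was 0.49 in EL1 and 0.51 in WTg. Mlxipl was 1.79 with clusters in EL1, and 0.85 with clusters, 1.12 with limits doubled and -1.29 with cells weighted equally in WTg. For Atp4b-positive over acinar-type cells, Mlxipl was 2.86 with clusters, 1.16 with cells weighted equally and 0.77 in cells low in mitotic genes, where Max was 0.47, Mxd4 0.18 and Mlx 0.78. For WTg over EL1 in acinar-type cells, clusters gave -0.29 for Max and 0.61 for Mxd4, and equal weights 1.80 for Mlxipl. In Chga-high cells, Myc was 0.72 with clusters, 0.28 with limits doubled and 0.47 with equal weights, clusters gave 0.82 for Mycn and -0.53 for Mxd4, doubled limits gave 0.47 for Max and 1.23 for Mlxipl, and equal weights gave -0.07 for Mlxipl. The percent of cells with a Myc UMI was higher at greater depth: at 5000 UMIs and without thinning it was 23.5 and 64.2 in acinar-type cells of EL1, 25.9 and 63.8 in those of WTg, 8.25 and 32.5 in Chga-high cells of EL1, 13.3 and 32.2 in those of WTg, and without thinning 60.0 in Atp4b-positive cells.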
